A study of Mus musculus with 6 samples.

Results

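Kinesins, cytoplasmic dynein and dynactin, the motors that carry cargo along the axon, were examined in retinal ganglion cells by bulk RNA sequencing. The set was chosen by gene symbol: numbered kinesins and kinesin light chains, all genes named Dync or Dynl, numbered dynactin subunits, the dynein regulators Pafah1b1, Nde1 and Ndel1, and the mitochondrial adaptors Trak1, Trak2, Rhot1 and Rhot2. It held 71 of the 22413 genes in the count table. Libraries came from adult mice. In 3 libraries the mice were Tgfbr1flx/flx;Vglut2Cre/+ (Cre-positive), with both copies of the TGF-beta type I receptor gene floxed and 1 Cre allele at Vglut2 (Slc17a6), the gene of a glutamate transporter used by ganglion cells. In the other 3 the mice were Tgfbr1flx/flx;Vglut2+/+ (Cre-negative), floxed in the same way but without Cre. Whether a library was 1 animal or a pool is not given in the sources used here, and a p-value therefore reflects no more than how far the libraries scatter, some of which may be technical.

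Kinesins are microtubule motors that mostly walk towards the plus end of the microtubule, which in axons points to the terminal, and cytoplasmic dynein walks back to the cell body with dynactin as its partner. Adaptors join the motors to vesicles, endosomes and mitochondria. Ganglion cell axons run the length of the optic nerve, so these neurons depend on both directions of transport, for example to bring mitochondria to the axon and to return neurotrophin signals to the nucleus.

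The libraries differed widely in composition, which bears on every value below. Totals were 13936519, 21126291 and 8098891 counts in Cre-positive libraries 1 to 3 and 11609621, 7486359 and 16372260 in Cre-negative libraries 1 to 3. The targeted gene, Tgfbr1, had 46, 0 and 793 counts in the Cre-positive libraries and 1, 0 and 1538 in the Cre-negative libraries, and these whole-gene counts do not check the deletion. Of 17 ganglion cell markers in the table, 10, 14 and 12 were detected (10 counts or more) in Cre-positive libraries 1 to 3 and 12, 12 and 8 in Cre-negative libraries 1 to 3. Pou4f2, a transcription factor of ganglion cells, had at most 1 count in any library. Cre-negative library 3 stood apart: it had 0 counts of Slc17a6 and 1 of Thy1, and its 12 endothelial markers summed to 6607 CPM (counts scaled to a common library total), where the other 5 libraries held 35.9 to 851 CPM. Among the 8 of 17 ganglion cell markers detected in it were Uchl1 at 6661 counts, Rbpms at 4203, Sncg at 3426 and Pou4f1 at 1394. In bulk samples, fewer cells of a type and less RNA per cell cannot be told apart.

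The motors as a group took 0.505% to 0.735% of the counts in every library, but which of them were seen changed from library to library. Summed over the 71 genes, they held 5618, 5989.8 and 5048 CPM in Cre-positive libraries 1 to 3, against 7349, 6315 and 5787 CPM in Cre-negative libraries 1 to 3. The group means were 5552 ± 475 CPM in Cre-positive and 6484 ± 795 CPM in Cre-negative libraries (SD, n = 3 each), a ratio of 0.856. The ranges overlapped. Cre-positive libraries detected 36, 40 and 33 of the 71 genes and Cre-negative libraries 26, 30 and 28, so the groups did not overlap in this count, with a ratio of means of 1.30. Over the whole table, 6738, 7209 and 5790 genes were detected in the Cre-positive libraries and 4258, 4463 and 4863 in the Cre-negative libraries, a ratio of 1.45. Of the 56 members detected anywhere, 25% were detected only in Cre-positive libraries, against 31.8% of all detected genes. Only in Cre-negative libraries were 16.1% of these members detected, against 12.25% of all detected genes.

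Of the 71 genes, 17 reached 10 counts in all 6 libraries (23.9%, against 5.34% of all genes in the table), 39 in 1 to 5 libraries and 15 in none. The 17 were Kif1a, Kif1b, Kif3a, Kif5b, Kif5c, Klc1, Dync1h1, Dync1i2, Dync1li2, Dynll1, Dynll2, Dynlrb1, Dynlt1b, Dynlt3, Dctn2, Pafah1b1 and Ndel1. Even these varied within a genotype: the highest of 3 libraries was a median 3.56 times the lowest among Cre-positive libraries (1.51 for Ndel1 to 65.0 for Dync1li2) and 5.47 times among Cre-negative libraries (1.18 for Dynll1 to 54.4 for Dynlt3). For 15 of the 17, the difference between genotype means was smaller than the larger of the 2 SDs, and the exceptions were Dynll1 and Dynlt1b.

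**Figure D1:**
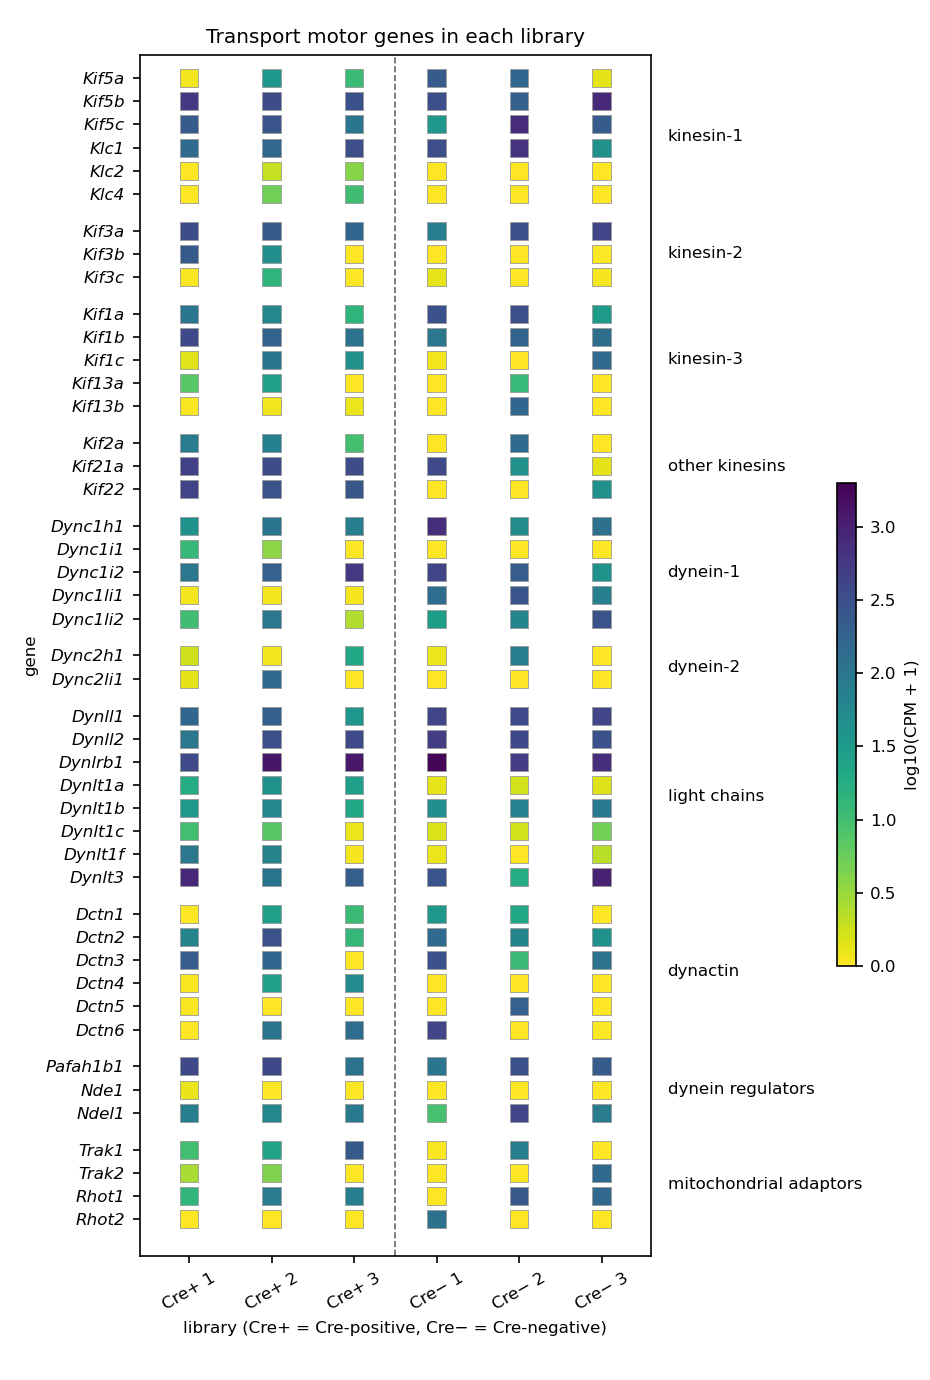
Level of 45 transport genes (rows, grouped by role) in each library (columns, Cre-positive left of the dashed line and Cre-negative right), as log10(CPM + 1) in colour. Kif5b, Dynlrb1 and Pafah1b1 were seen in every library, while Dctn5, Rhot2 and Kif13b were each detected in a single Cre-negative library.

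No motor gene passed the comparison of genotypes. Of 33 members with enough counts to be tested, 0 had a Benjamini-Hochberg adjusted p under 0.05 in edgeR's quasi-likelihood test over 5727 genes, where 0 genes passed (0.0%). Among those tested, Dync1li1 passed the filter on low counts only through the Cre-negative libraries and Dynlt1a only through the Cre-positive libraries, so each had to differ to be tested, and their p-values and calls with any tool are given as a description. At an unadjusted p under 0.05 there was 1 member, Dync1li1, against 4.91% of all genes tested. In its direction, lower in Cre-positive libraries, 0.419% of genes had such a p, and 4.49% in the other direction, which held 0 members. Dync1li1 kept it without Cre-negative library 1 or 3 but not without Cre-negative library 2 or any of the 3 Cre-positive libraries. With 1 library left out, 0 members passed the adjusted threshold, beside 0.0287% of genes without Cre-positive library 1, 0.0% without Cre-positive library 2 or 3, and 0.0915%, 0.0393% and 0.0544% without Cre-negative libraries 1, 2 and 3. DESeq2 called 4 of the 36 members to which it gave an adjusted p, with Dctn4, Dynlt1a and Kif3b higher and Dync1li1 lower in Cre-positive libraries. That tool called 12.6% of its 5900 genes as higher and 2.39% as lower. Limma voom called 1 member, Dync1li1, and 1.43% of genes as higher and 0.105% as lower. In edgeR 15 of the 33 members had a positive log2 fold change (Cre-positive over Cre-negative) and 18 a negative one, with a median of -0.11, beside 54.2% positive and a median of 0.14 over all genes tested. The median standard error of a member's log2 fold change was 2.67, and 31 of 33 had one above 1, so for most members only very large differences could exceed the spread between libraries.

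**Figure D2:**
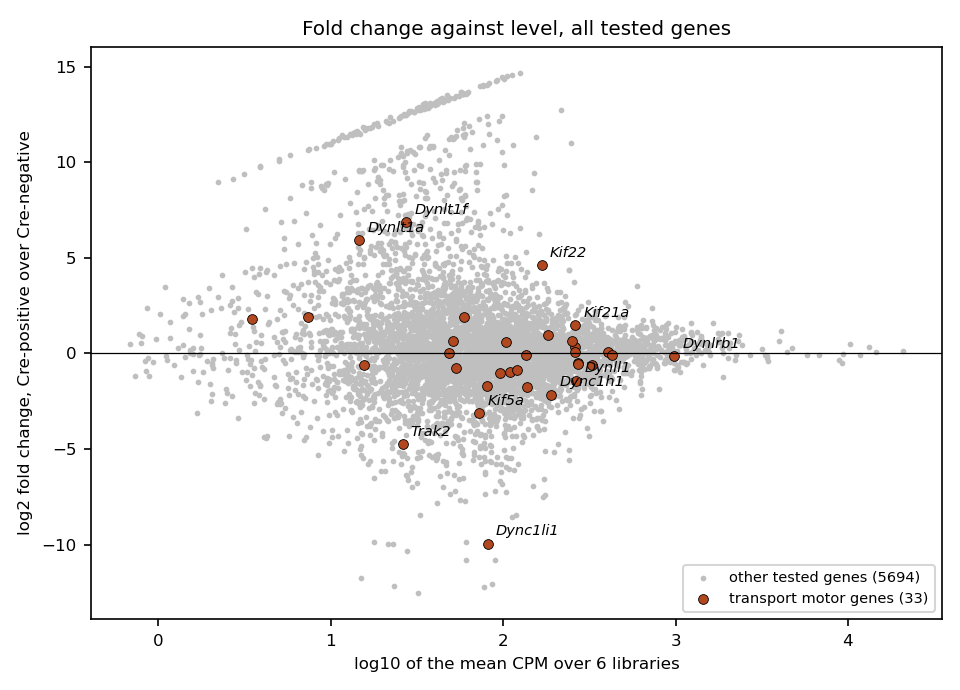
Log2 fold change of Cre-positive over Cre-negative libraries (y axis) against the log10 of the mean CPM over 6 libraries (x axis) for 5727 tested genes in edgeR, with the 33 transport genes in dark orange. Dynlrb1, the member with the highest mean CPM, lay near 0, while Dynll1 and Kif21a, also well expressed, lay at -1.42 and 1.47. Dync1li1 lay lowest of the 33, at -9.95.

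Among tested members, 2 lay above every Cre-negative library in all Cre-positive libraries (Kif22 and Dynlt1a), and 2 lay below (Dync1li1 and Dynll1). Over all tested genes 10.4% lay above and 2.3% below in this way. The members are described in the following by their roles.

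**Figure D3:**
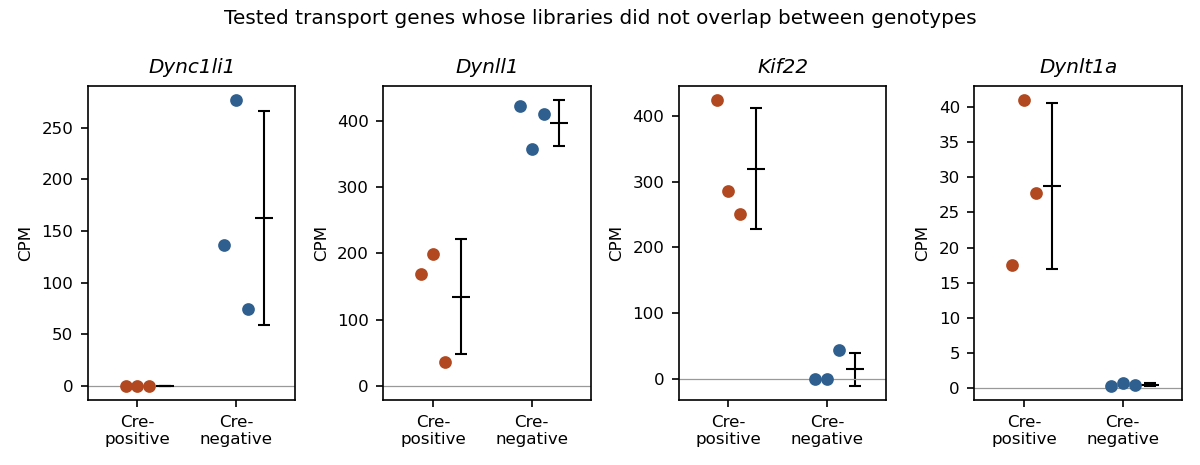
CPM of Dync1li1, Dynll1, Kif22 and Dynlt1a in each library (points, 3 per genotype), with the mean and SD beside them (bar and whiskers). Dync1li1 and Dynll1 were lower in every Cre-positive library, and Kif22 and Dynlt1a higher, than in any Cre-negative library.

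Of the light intermediate chains of dynein, which connect the motor to its cargo adaptors, Dync1li1 separated the genotypes and Dync1li2 did not. Dync1li1 (chromosome 9, 114688831 to 114723788, mm10) had 2, 3 and 1 counts in Cre-positive libraries 1 to 3, against 1587, 2071 and 1221 counts in Cre-negative libraries 1 to 3. Every Cre-positive library was thus near 0 and every Cre-negative library was well above it, at 74.6 to 277 CPM. Scaled for depth, the pooled counts were 989.6 times lower in Cre-positive libraries (exact 95% interval 454 to 2698, for counting error only). For this gene, tested only through its Cre-negative counts, the log2 fold change was -9.95 ± 4.09 (SE) and its adjusted p in edgeR 0.781; over the alternatives the adjusted p ran from 0.00136 with DESeq2 to 1. Its paralogue Dync1li2 went with neither genotype, at 9.33, 96.3 and 1.48 CPM in Cre-positive libraries and 28.7, 61.3 and 284 CPM in Cre-negative libraries. As a share of the 2 paralogues' counts, Dync1li1 made up 1.52% (Wilson 95% interval 0.416% to 5.36%), 0.147% (0.0501% to 0.432%) and 7.69% (1.37% to 33.3%, from 13 counts in all) in Cre-positive libraries 1 to 3. In Cre-negative libraries 1 to 3 it made up 82.7% (80.9% to 84.3%), 81.9% (80.3% to 83.3%) and 20.8% (19.8% to 21.8%). The interval of Cre-positive library 3 covered the share in Cre-negative library 3. A share within a library does not depend on how libraries are scaled. Of all genes in the table, 16 reached 10 counts in every Cre-negative library and in no Cre-positive library, and Dync1li1 was the only transport motor among them; the reverse pattern, shown by Dynlt1a, was found for 274 genes.

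The other subunits of the dynein-1 core overlapped between genotypes. Dync1h1, the heavy chain that holds the motor domain, had 567, 2113 and 643 counts in Cre-positive libraries and 8650, 375 and 1987 counts in Cre-negative libraries. A single library, Cre-negative 1, stood far above the others at 745 CPM, and the log2 fold change of -2.16 ± 1.95 became -0.13 without it. The intermediate chain Dync1i2, which binds dynactin, was at 298 ± 270 CPM in Cre-positive and 226 ± 192 CPM in Cre-negative libraries. Its neuron-enriched paralogue Dync1i1 had 159, 56 and 0 counts in Cre-positive libraries and 0 in each Cre-negative library, so Dync1i2 gave 89.5% to 100% of the intermediate chain counts in every library.

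Among the light chains, Dynll1 (chromosome 5, 115297110 to 115300990), which encodes a small dimeric hub protein also found outside dynein, was lower in all Cre-positive libraries. It was at 169, 199 and 35.3 CPM in Cre-positive libraries 1 to 3, against 422, 358 and 411 CPM in Cre-negative libraries 1 to 3. The Cre-negative values were the most even of all 17 members seen in every library, and the Cre-positive values were lower and more spread, with library 3 the lowest. The means were 134 ± 87.1 and 397 ± 34.2 CPM in Cre-positive and Cre-negative libraries (SD, n = 3 each), with a log2 fold change of -1.42 ± 1.44 and an adjusted p of 0.9998 in edgeR. Dynll2, the close paralogue, was at 96.2, 316 and 365 CPM in Cre-positive and 509, 384 and 306 CPM in Cre-negative libraries, which overlapped. Dynll1 took 63.7% (Wilson 95% interval 62.1% to 65.2%), 38.6% (37.7% to 39.5%) and 8.82% (7.89% to 9.85%) of the counts of the pair in Cre-positive libraries 1 to 3, against 45.4% (44.4% to 46.3%), 48.3% (46.9% to 49.6%) and 57.3% (56.4% to 58.2%) in Cre-negative libraries 1 to 3.

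**Figure D4:**
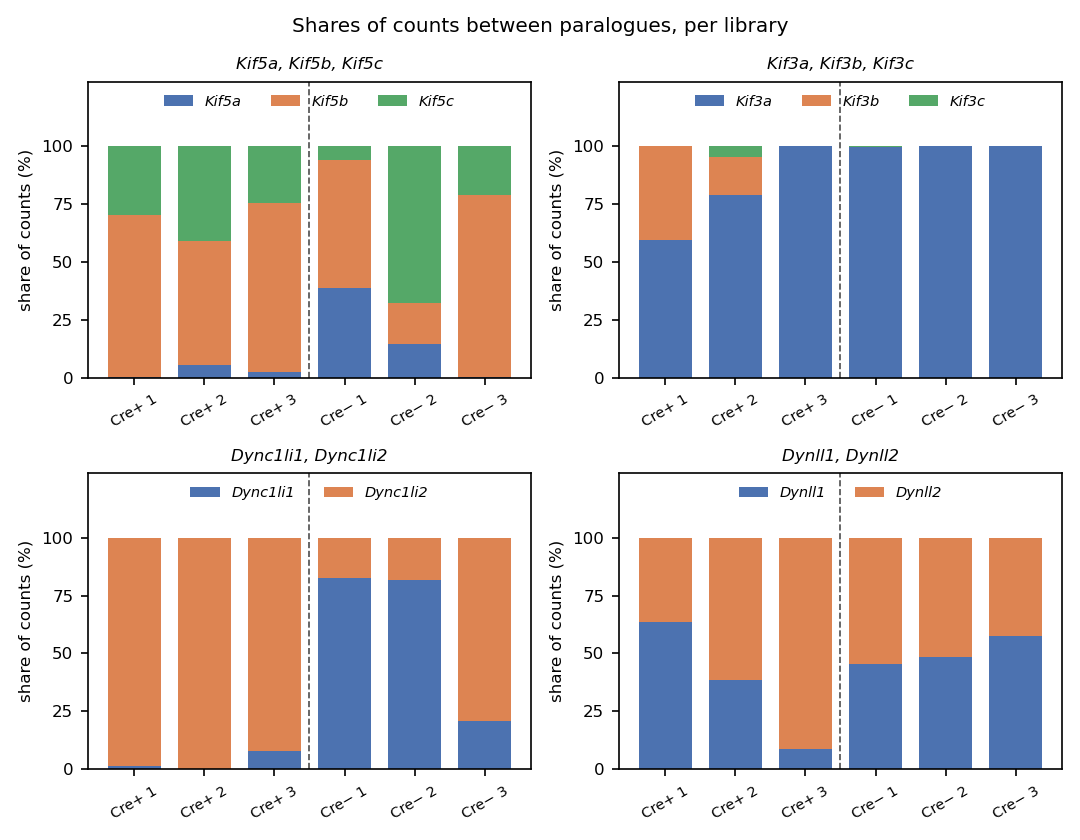
Share of counts (%, stacked bars) taken by each paralogue of Kif5, Kif3, Dync1li and Dynll in each library, with Cre-positive libraries left of the dashed line and Cre-negative right. Dync1li1 took at most 7.69% in Cre-positive libraries and at least 20.8% in Cre-negative libraries, while Kif5a took 38.5% in Cre-negative library 1 and 0.0342% in Cre-negative library 3.

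Dynlrb1, the roadblock light chain that binds the intermediate chains, was the most abundant member per length, at 955 ± 518 FPKM (counts scaled for gene length and library total) in Cre-positive and 1007 ± 689 FPKM in Cre-negative libraries (SD, n = 3 each). It was followed by Dynlt3, Dynll1 and Dynll2, with means over 6 libraries of 188, 132 and 113 FPKM. In Cre-positive library 1 Dynlt3, at 395 FPKM, was above Dynlrb1, at 358 FPKM, and the ranges of Dynlt3, Dynll1 and Dynll2 over the libraries overlapped each other. In the test Dynlrb1 had a log2 fold change of -0.13 ± 0.63, the smallest standard error of the 33. Its highest library was still 3.59 times its lowest among Cre-positive and 3.58 times among Cre-negative libraries. Dynlt3, a Tctex-type light chain encoded on chromosome X, was at 851, 107 and 213 CPM in Cre-positive and 280, 17.8 and 967 CPM in Cre-negative libraries, with no order by genotype.

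The Tctex-type light chain Dynlt1 has 4 copies in the table, which lie near each other on chromosome 17 and are almost identical, so their counts are uncertain. The first 60 bases of each coding sequence are shown because they hold the only base, in capitals, at which the 342-base coding sequences differ (GENCODE M21 transcripts, GRCm38, positions counted from 1 at the start codon).
Dynlt1a: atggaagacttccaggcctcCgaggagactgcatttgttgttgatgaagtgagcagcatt
Dynlt1b: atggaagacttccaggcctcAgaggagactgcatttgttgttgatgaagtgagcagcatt
Dynlt1c: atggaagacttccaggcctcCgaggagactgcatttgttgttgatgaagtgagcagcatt
Dynlt1f: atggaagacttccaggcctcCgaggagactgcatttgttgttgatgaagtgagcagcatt
Relative to Dynlt1b the other copies carry A21C, in a serine codon in either case, so all 4 encode the same protein. Of the 100-base windows of their transcripts, 54.7% of those of Dynlt1a, 82.0% of Dynlt1b, 80.7% of Dynlt1c and 78.0% of Dynlt1f were also found in another gene's transcript.

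Read with that limit, Dynlt1a had 244, 865 and 225 counts in Cre-positive libraries 1 to 3, against 4, 5 and 8 counts in Cre-negative libraries 1 to 3. All Cre-positive libraries lay above all Cre-negative ones, and, for a gene tested only through its Cre-positive counts, the log2 fold change was 5.94 ± 3.43 (adjusted p in edgeR 0.9998; the alternatives gave 0.0478 with DESeq2 to 1). Dynlt1f had 1343, 1403 and 1 counts against 3, 0 and 21, so Cre-positive library 3 went with the Cre-negative libraries. Dynlt1b, the copy with most counts in Cre-negative libraries, had 447, 1274 and 163 counts in Cre-positive and 532, 512 and 1509 counts in Cre-negative libraries. Exons of Dynlt1a also overlap those of Tmem181a and a predicted gene on the opposite strand, by up to 13.6% of their length for either one.

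Kinesin-1, the motor of mitochondria and many vesicles in axons, is a pair of Kif5 heavy chains with a pair of light chains. Kif5b, the broadly expressed heavy chain, was present everywhere, at 543, 356 and 299 CPM in Cre-positive and 325, 200 and 845 CPM in Cre-negative libraries (log2 fold change -0.06 ± 0.94). Kif5c, a neuronal heavy chain, was at 229, 270.5 and 100.3 CPM in Cre-positive and 34.2, 772 and 227 CPM in Cre-negative libraries. Both overlapped fully between genotypes.

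The neuronal heavy chain Kif5a was the least even of the 3. It had 2, 731 and 84 counts in Cre-positive libraries 1 to 3, against 2614, 1242 and 6 counts in Cre-negative libraries 1 to 3. The lowest were Cre-positive library 1, which had 5904 counts of Slc17a6, and Cre-negative library 3, which had 0. The latter had the highest endothelial markers but also 8 of 17 ganglion cell markers detected. The part of cell composition in the Kif5a counts was not tested. The log2 fold change was -3.13 ± 3.26 (adjusted p 0.9998 in edgeR). Kif5a gave 0.0186% (Wilson 95% interval 0.0051% to 0.0677%), 5.24% (4.88% to 5.62%) and 2.53% (2.05% to 3.12%) of the Kif5 counts in Cre-positive libraries 1 to 3, against 38.5% (37.4% to 39.7%), 14.6% (13.8% to 15.4%) and 0.0342% (0.0157% to 0.0745%) in Cre-negative libraries 1 to 3. Of the light chains, which bind cargo, Klc1 was at 211 ± 106 CPM in Cre-positive and 334 ± 293 CPM in Cre-negative libraries. Klc2 and Klc4 were seen only in Cre-positive libraries 2 and 3, at 20 to 88 counts. Detection in Cre-positive libraries only was found for 31.8% of all detected genes. The 4 tested genes of kinesin-1 all had negative log2 fold changes, from -3.13 to -0.06, and 0 passed. Over all genes tested 54.2% were positive. With voom Kif5c and Klc1 were positive, at 0.34 and 0.45. Kif5b was positive with limma on log2(FPKM + 1), at 0.020, and in 3 fits with 1 library left out, at up to 0.65.

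Kinesin-2 carries vesicles in axons and cargo in cilia as a pair of Kif3a with Kif3b or Kif3c. Kif3a was detected in every library, at 345, 234 and 160 CPM in Cre-positive and 79.5, 321 and 435 CPM in Cre-negative libraries. Its partner Kif3b had 3287, 1040 and 0 counts in Cre-positive libraries and 0, 0 and 1 in Cre-negative libraries, 3556 times higher in Cre-positive libraries once scaled for depth (exact 95% interval 638 to 140476, for counting error only, with 1 count below). Kif3b was too sparse for edgeR's filter, and in DESeq2 its adjusted p was 0.00929. It reached 10 counts only in Cre-positive libraries, so that value is given as a description. Kif3c passed 10 counts in Cre-positive library 2 alone, and 38.2% of its 100-base windows are shared with genes on the opposite strand. Kifap3, the subunit that links the pair to cargo and is named here for that reason, had 508, 2494 and 2338 counts in Cre-positive and 2019, 437 and 1654 counts in Cre-negative libraries. Kif3a and Kifap3 were thus present in libraries without any Kif3b count.

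Kinesin-3 motors carry precursors of synaptic vesicles and dense-core vesicles. Kif1a was at 100.3, 58.4 and 13.1 CPM in Cre-positive and 306, 317 and 29.9 CPM in Cre-negative libraries. The lowest Cre-negative value came from library 3, which lay inside the Cre-positive range, and the log2 fold change was -1.74 ± 2.51. Kif1b, which also carries mitochondria, was at 387, 182 and 109 CPM in Cre-positive and 97.3, 187 and 126 CPM in Cre-negative libraries. Kif1c, a carrier of dense-core vesicles, Kif13a and Kif13b were each detected in 1 to 3 libraries. Kif13b had 1236 counts in Cre-negative library 2 and at most 4 in any other library.

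Kif21a, a kinesin-4 family motor that restrains microtubule growth, was steady in Cre-positive libraries and not in Cre-negative ones. It was at 465, 352 and 350 CPM in Cre-positive libraries 1 to 3, against 364, 43.4 and 0.367 CPM in Cre-negative libraries 1 to 3. Cre-negative library 1 lay within the Cre-positive range and the others below it, giving a log2 fold change of 1.47 ± 1.64, or 4.56 without Cre-negative library 1. Kif2a, which shortens microtubules and limits axon branching, had 1173, 1540 and 70 counts in Cre-positive and 0, 1064 and 0 in Cre-negative libraries; 16.8% of its windows are shared with Dimt1 on the opposite strand.

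Kif22 (chromosome 7, 127027729 to 127042467), a kinesin best known for binding chromosomes in dividing cells, was high in every Cre-positive library. It was at 424, 285 and 250.2 CPM in Cre-positive libraries 1 to 3, against 0, 0 and 43.5 CPM in Cre-negative libraries 1 to 3. The groups did not overlap, and the counts ranged from 2026 to 6026 in Cre-positive libraries and reached 712 in Cre-negative ones. For this gene, carried through the filter by its Cre-positive counts, the log2 fold change was 4.63 ± 2.80. Its adjusted p was 0.9998 in edgeR, where the alternatives gave 0.0740 with voom to 1. Without Cre-negative library 3, the only one of its genotype with Kif22 counts, the fitted log2 fold change was 15.01, which against libraries at 0 depends on the prior count. Kif22 ranked seventh of the 71 members by mean FPKM. Of the other kinesins listed for cell division, Kif11, Kif15, Kif18a, Kif20b and Kif2c did not reach 10 counts in any library, Kif14 and Kif23 reached it in 1 Cre-negative library each, and Kif18b in Cre-positive library 1.

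Of the 8 proliferation markers in the table, Mki67, Top2a, Ccnb1, Ccna2, Aurkb and Mcm2 stayed below 10 counts in every library, and Cdk1 had 36 counts in Cre-positive library 3 and at most 6 elsewhere. Pcna, also used in DNA repair, had 151, 2468 and 2186 counts in Cre-positive and 4332, 0 and 7131 counts in Cre-negative libraries. The part of dividing cells in the Kif22 counts was not tested. Exons of Kif22 share 1.96% of their length with a predicted gene on the opposite strand, and none of its 100-base windows occurs in another gene's transcript.

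Dynactin, the complex that lets dynein run over long distances, was represented in pieces. Of its 6 numbered subunits, 2, 5 and 4 were detected in Cre-positive libraries 1 to 3 and 4, 4 and 2 in Cre-negative libraries 1 to 3, and Dctn2 was the only one seen in all 6. Dctn2, the subunit whose overexpression takes the complex apart, was at 66.6, 296 and 11.5 CPM in Cre-positive and 149, 62.3 and 41.1 CPM in Cre-negative libraries. Dctn1, the large subunit that binds microtubules, had 0, 583 and 84 counts in Cre-positive and 407, 156 and 0 counts in Cre-negative libraries. Each genotype thus had a library without any Dctn1 count.

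Dctn3, of the shoulder of the complex, had 0 counts in Cre-positive library 3 and 76 to 3592 in the other libraries. Dctn4, a subunit of the pointed end, had 1, 538 and 420 counts in Cre-positive libraries and 0 in each Cre-negative library. This was at least 263-fold higher against a floor of 3 counts over the group. Its adjusted p of 0.0133 in DESeq2 rests on Cre-positive counts alone and is given as a description. Dctn5, of the same end, had 1425 counts in Cre-negative library 2 and at most 1 elsewhere. Dctn6, also of that end, had 0, 2274 and 1102 counts in Cre-positive and 4775, 0 and 1 in Cre-negative libraries, with a log2 fold change of -0.98 that was 10.85 without Cre-negative library 1. No library held 10 counts of all 6 subunits.

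Of the dynein regulators, Pafah1b1 and Ndel1 were detected in every library. Pafah1b1, which encodes Lis1, the factor that holds dynein in its active form, was at 377, 372 and 110.3 CPM in Cre-positive and 103, 299 and 234 CPM in Cre-negative libraries (log2 fold change 0.66 ± 1.48). Ndel1, its partner in neurons, was at 76.2, 59.7 and 89.9 CPM in Cre-positive libraries, the narrowest range in that genotype among the 17 members seen in all 6 libraries. In Cre-negative libraries Ndel1 was at 8.18, 403 and 85.6 CPM, which spans the Cre-positive values. Nde1, the paralogue used mainly by dividing neural progenitors, had 4 counts in Cre-positive library 1 and 0 in the other libraries.

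The adaptors of mitochondrial transport, in which Rhot proteins on the outer membrane bind Trak proteins and these bind the motors, were often represented by 1 paralogue. Rhot1 had 181, 1788 and 619 counts in Cre-positive libraries and 0, 1831 and 2570 in Cre-negative libraries. Rhot2 had 1294 counts in Cre-negative library 1, where Rhot1 had none, and 0 in the other 5; 21.2% of its windows are shared with the overlapping predicted gene Gm20683. Each library with either gene thus held counts of only 1 of them.

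Trak1 had 124, 494 and 1935 counts in Cre-positive and 1, 614 and 0 counts in Cre-negative libraries, and Trak2 had 24, 69 and 0 against 0, 0 and 2478. The Trak2 log2 fold change of -4.75 ± 3.88 rested on Cre-negative library 3 and was 7.43 without it. In that library, whose endothelial markers were highest, Trak2 took all 2478 Trak counts. Summed markers of Müller glia were also highest there, at 6281 CPM (5867 CPM of it Vim), against 695 to 2262 CPM elsewhere. The part of endothelial or glial RNA in the Trak2 counts was not tested. Cre-negative library 1 had 1 count of Trak1 and none of Trak2.

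Dynein-2, the motor of cilia, and the remaining kinesins were rare. The dynein-2 heavy chain Dync2h1 reached 616 counts in Cre-negative library 2, 161 in Cre-positive library 3 and at most 10 elsewhere. Its light intermediate chain Dync2li1 had 3007 counts in Cre-positive library 2 and at most 5 elsewhere. Kif18b, Kif23, Kif24 and Kif26a each had 627 to 994 counts in 1 library and at most 9 in any other. Counted over the 56 members detected anywhere, 15 (26.8%) were seen in a single library, against 32.7% of all detected genes. A further 15 members never reached 10 counts: Dynlt4, Dynlt5, Kif11, Kif12, Kif15, Kif16b, Kif18a, Kif19a, Kif19b, Kif20b, Kif28, Kif2c, Kif7, Klc3 and Nde1.

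Other genes of microtubule transport did not pass the comparison of genotypes either. Of 24 tested cargo adaptors, dynactin partners and linkers, 11 had positive and 13 negative log2 fold changes (median -0.32) and 0 passed. Plekhm2, which couples lysosomes to kinesin-1, had 0, 290 and 0 counts in Cre-positive and 1, 649 and 678 in Cre-negative libraries and had the smallest p of that list (0.395 unadjusted, edgeR). Of 16 tested microtubule-associated proteins, 9 were positive and 7 negative (median 0.07), and 0 passed. Map1b, an axonal microtubule stabiliser, was present everywhere, at 352, 255 and 597.5 CPM in Cre-positive and 365, 689.5 and 233 CPM in Cre-negative libraries. Mapre1, a plus-end binding protein, ranged from 64.4 to 704 CPM in Cre-positive and 1.47 to 88.4 CPM in Cre-negative libraries. Of 7 tested enzymes that modify or cut tubulin, 4 were positive and 3 negative and 0 passed; Agtpbp1, which trims glutamate chains from tubulin, had 7, 510 and 163 counts in Cre-positive and 0, 22 and 0 in Cre-negative libraries.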

How the data were processed

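Ganglion cell RNA (RNeasy Micro Kit) went into VAHTS libraries, per the labels' protocols. The authors deposited unnormalized counts for 22413 genes in 6 samples, and FPKM, in which the counts are scaled for gene length and library total. Fastp, HISAT2, HTSeq, R 3.2.0 and DESeq2 with mm10 are named in the submitters' processing notes without a role; no strand setting is given in the sources used here, so reads of overlapping opposite-strand genes cannot be told apart.

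CPM used column totals. The limit for a count of 0 was 3 counts (0.142 to 0.401 CPM, by library). Without molecular identifiers, reads are not independent molecules, so intervals and limits describe counting error alone. Genotypes were compared with edgeR 4.0.16 (TMM, filterByExpr, robust quasi-likelihood test, genotype as the only term, Benjamini-Hochberg over all 5727 tested genes, threshold 0.05) in R 4.3.3. SE is the absolute log2 fold change over the square root of F. DESeq2 1.42.0 (adjusted p missing for 16513 genes), limma 3.58.1 (voom, and log2(FPKM + 1) or log2(FPKM + 0.1)), other scalings, no filter, a replicate block and each library left out were alternatives. The main edgeR test, DESeq2, voom and limma on log values were run on simulated counts that scattered far less than these data. Here the biological coefficient of variation, the relative spread between libraries, was 2.04. The simulation therefore does not show how the tests perform at this spread.

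Named genes were a panel of axonal transport genes, the 10 members with the highest mean FPKM, the 6 tested members with the smallest p in each direction and 3 genes of each further list; the rest, and Map1b, Kifap3 and the sparse members, were named after their values were seen. Members and lists were chosen with earlier results of these data known. Of the 71 members, 66 had GENCODE M21 transcripts, and 44 of these shared no 100-base window with another gene. Coordinates are from RefSeq GRCm38.p6 (mm10).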

Additional observations from a re-analysis of the deposited data

How the results depend on the processing

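The number of motor genes passing the adjusted threshold was 0 under every edgeR setting and both limma settings on FPKM, 4 with DESeq2 and 1 with limma voom; for all genes those tools called 885 and 88, and edgeR 0 to 7 with 1 library left out. Members with an unadjusted p under 0.05 numbered 1 in the main comparison, 4 (of 71 tested) without the low-count filter, 3 (of the 33 tested) with DESeq2, voom, log2(FPKM + 1) and log2(FPKM + 0.1), and 0 to 3 with 1 library left out. The share of all genes with such a p is given for the main comparison alone (4.91%). These counts can therefore not be set against a background in the other fits. DESeq2's size factors moved the median log2 fold change of all genes to -0.13, from 0.14, and that of the members to -0.38. The share of tested members with a positive log2 fold change, 45.5%, was 36.4% with DESeq2's size factors, column totals or DESeq2 (all genes 46.8%, 51.1% and 53.7%) and 63.6% with voom (all genes 70.05%). With 1 library left out, 37 to 43 members were tested. Their median then ran from -0.33 to 0.74, beside 0.03 to 0.57 over all genes tested. The labels number the samples 1 to 3 in each genotype, but same-numbered libraries did not deviate together (correlations of -0.0248, 0.028 and -0.00851); with the replicate block 0 members passed, 1 had an unadjusted p under 0.05 and the positive share was 63.6% (all genes 67.45%). Dync1li1 passed with DESeq2 (-10.32) and voom (-9.32), and stayed between -10.30 and -9.58 with 1 library left out, without passing.

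Of 32 named members with a fold change, 17 kept their sign under every alternative run. Some were named for having the smallest p in each direction in these same data, which favours a kept sign. No share over all genes is given, so the count describes the named members only. Signs turned as follows, and the cause was not tested. With DESeq2's size factors Dynlt3 was at -0.32 and Kif3a at -0.32, with column totals at -0.11 and -0.18, and with DESeq2 at -0.35 and -0.34; Dynlt3 was at -0.0041 without the filter. With voom Dctn6 was at 2.67, Dynlrb1 0.34, Dynlt3 -0.28, Kif5c 0.34, Klc1 0.45, Ndel1 0.21, Rhot1 2.06 and Trak2 0.22. With log2(FPKM + 1) Dctn2 was at -0.19, Dctn6 1.17, Kif5b 0.020 and Ndel1 0.066, and with log2(FPKM + 0.1) at -0.24, 2.19, 0.023 and 0.16, with Kif5c at 0.013 and Rhot1 at 0.77. With the replicate block Dctn1 was at 0.66, Dctn2 -0.31, Dctn6 6.93, Dynlrb1 0.13, Kif5b 0.18, Ndel1 0.21, Rhot1 0.41 and Trak2 5.38. With 1 library left out the ranges that crossed 0 were -1.92 to 0.55 for Dctn1, -0.89 to 1.49 for Dctn2, -0.91 to 1.28 for Dctn3, -1.63 to 10.85 for Dctn6, -0.62 to 1.46 for Dync1i2, -0.56 to 0.74 for Dynlrb1, -1.50 to 1.35 for Dynlt3, -0.45 to 0.57 for Kif3a, -0.53 to 0.65 for Kif5b, -0.99 to 0.72 for Kif5c, -1.38 to 0.77 for Ndel1, -0.40 to 10.56 for Trak1 and -5.58 to 7.43 for Trak2.

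The Cre-positive over Cre-negative ratio of members detected was 1.18 to 1.29 at other limits and after thinning, and the ratio of summed levels 0.839 to 0.916 with FPKM, TMM-scaled sizes or without Dynlrb1, the last chosen after seeing the data.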
